A study of Mus musculus with 4 samples.

Results

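The interferon regulatory factor (IRF) family was followed in mouse SVEC endothelial cells, an established SV40-transformed line, after treatment with lipopolysaccharide (LPS), a bacterial outer membrane component sensed through Tlr4. The members were all spots whose single gene symbol is Irf followed by a digit from 1 to 9. They comprised 8 genes and 16 spots, of 11138 genes and 24344 spots with a single symbol. The groups were cells cultured with LPS for 24 h and for 4 h, each hybridised on the same 2-colour array as control cells of the line, with amplified RNA in both dyes. Each time had 2 arrays, the first with LPS RNA in Cy5 and the second with the dyes exchanged, and 3 of the 4 labels state a dose of 50 ng/ml.

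IRF proteins are transcription factors that share a DNA-binding domain at the N terminus and bind repeats of GAAA, the core of the interferon-stimulated response element (ISRE). Downstream of Tlr4, the kinases Tbk1 and Ikbke phosphorylate Irf3, which switches on Ifnb1. Secreted interferon then acts through Ifnar1 and Ifnar2 on the complex ISGF3, which contains Irf9 and Stat2, and ISGF3 in turn transcribes Irf7 and many antiviral genes. Arrays of RNA report transcript ratios and not the phosphorylation that activates Irf3 and Irf7.

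Every value below is a log2 ratio of LPS over control, centred on the median of each array, and the SD is the spread between the 2 arrays of a time. Because the labels speak of a dye reversal and of no further cultures, each time was counted as 1 RNA pair, so the spread is technical and no test within a time was possible. LPS over control is the likely direction, inferred from the dyes in the labels; if the ratios ran the other way, all signs here would flip. A gene was called when its mean was at least 1 (2-fold) and each array at least 1.5-fold the same way. By this 2-fold rule 276 genes (2.48%) were called at 24 h and 1616 (14.5%) at 4 h. With the reversed array turned back, so that the dye and not LPS is called, the rule took 1.7% and 1.83% of genes and 0 IRF genes at either time. The arrays of a pair correlated across genes at r = 0.10 at 24 h and 0.48 at 4 h. No intensities were used, so levels cannot be compared between genes, and the endothelial label could not be checked against levels of its markers. In bulk RNA of a culture, less RNA per cell and fewer cells of a type cannot be told apart.

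At 24 h, Irf7, the interferon-induced member that amplifies interferon production, was higher with LPS. It was the only member past the 2-fold rule, 1 of 8, where 1.68% of all genes were called higher. No member was called lower, where 0.799% of all genes were. The family ran from -1.42 for Irf2 to 1.17 for Irf7, with a median of 0.35 against 0.02 for all genes. Of the 8 means, 7 lay above 0, as did 51.9% of all genes. Those of Irf1 (0.05) and Irf3 (0.06) were close to 0, and 5 members were above 0 on both arrays. With each array centred on abundant transcripts the family median at 24 h was 0.23. At 4 h no member was called in either direction, where 8.74% of all genes were called higher and 5.77% lower. The 4 h means ran from -0.77 for Irf7 to 0.30 for Irf1, with a median of -0.18, or -2.19 with each array centred on abundant transcripts. Signs can hang on the centring. With the abundant transcripts as the centre, the 4 h means of Irf1, Irf3 and Irf5 turned below 0. Those of the other members were below 0 either way. The 24 h means of Irf1 and Irf3 turned to -0.07 and -0.05. Of the 25 measured abundant transcripts, such as actin and tubulin genes, 0 were called at 24 h, with a median of 0.11, and 15 were called higher and 1 lower at 4 h, with a median of 1.99. With that other centring, which moved the median of all genes by -0.12 at 24 h and by -2.01 at 4 h, all 8 members were called lower at 4 h and Irf7 alone was called higher at 24 h. That centring put the splits over all genes at 139 higher to 172 lower at 24 h and 93 to 9230 at 4 h, against 187 to 89 and 973 to 643 with the median.

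**Figure D1:**
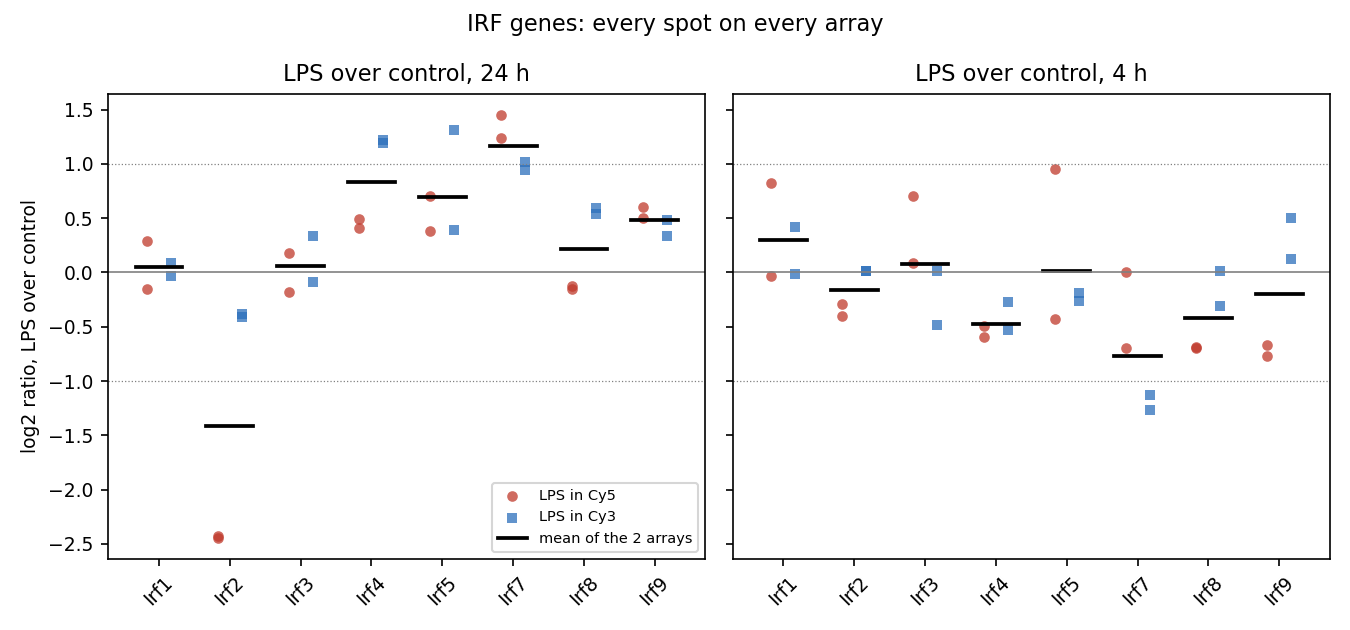
Log2 ratio of LPS over control (y axis) for every spot of the 8 IRF genes (x axis) at 24 h (left) and 4 h (right); red circles are the array with LPS in Cy5, blue squares the array with LPS in Cy3, black bars the mean of the 2 arrays, dotted lines 2-fold. At 24 h all Irf7 spots lie between 0.95 and 1.45, and Irf2 is split between about -2.4 on the Cy5 array and about -0.4 on the Cy3 array.

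Irf7 and Irf3 are the closely related members that transcribe interferon genes. At 24 h the 2 Irf7 spots read 1.24 and 1.45 with LPS in Cy5, and 1.02 and 0.95 with LPS in Cy3. All 4 readings were high and close together. Their mean was 1.17 ± 0.26 (SD, 2 arrays), or 2.24-fold, and 97.5% of genes lay lower. The Irf7 spots at 4 h read 0.00 and -0.70 with LPS in Cy5, and -1.26 and -1.12 with LPS in Cy3, a mean of -0.77 ± 0.60. The 4 h arrays thus lay at -0.35 and -1.19, both below both 24 h arrays, and the array with LPS in Cy3 taken alone would have met the rule as lower. The reading of 0.00 was deposited as -3e-07. With exact zeros taken as not measured, the 4 h mean of Irf7 was -0.96, still short of the rule.

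Irf3, which is present in resting cells and is activated by phosphorylation, had means close to 0 at both times with the median centring. Its arrays read 0.00 and 0.12 at 24 h and 0.39 and -0.24 at 4 h, with means of 0.06 ± 0.09 and 0.08 ± 0.45. The 4 h spots were uneven, at 0.70 and 0.08 with LPS in Cy5 and 0.01 and -0.49 with LPS in Cy3. With centring on the abundant transcripts the 4 h mean was -1.93. By array values, Irf3 was the only one of the 8 members whose 2 times overlapped. Over all genes, both 24 h arrays lay above both 4 h arrays in 24.3% and below them in 23.3%. Single spots of other members also overlapped between the times, such as those of Irf1, with 0.29 at 24 h and -0.03 at 4 h.

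Irf5, a member activated through the adaptor Myd88, had array values of 0.54 and 0.85 at 24 h and a mean of 0.70 ± 0.22, which is 1.62-fold and short of the rule. Its spots were uneven, at 0.70 and 0.38 with LPS in Cy5 and 0.39 and 1.31 with LPS in Cy3. The 4 h arrays lay on either side of 0, at 0.26 and -0.23, and its 2 spots with LPS in Cy5 read -0.43 and 0.96. That gap of 1.39 was the widest between the spots of a member on any array, while the middle gap over all 12172 adjacent pairs of spots on that array was 0.20 and 95% of pairs lay within 2.46.

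Irf9, the DNA-binding subunit of ISGF3, had array values of 0.55 and 0.41 at 24 h, a mean of 0.48 ± 0.10 or 1.40-fold. Both arrays were above 0 and close together, and neither reached 1.5-fold. At 4 h they parted to -0.72 and 0.32, with a mean of -0.20 ± 0.73.

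Irf1 and Irf2 are the founding pair of the family. Irf1 activates and Irf2 competes with it for the same sites. Irf1, known as an early gene of interferon gamma and NF-kB signalling, had array values of 0.07 and 0.03 at 24 h and 0.40 and 0.20 at 4 h, for means of 0.05 ± 0.03 and 0.30 ± 0.14. Its 4 h mean was the highest of the family at that time, but its spots there ran from -0.03 to 0.82. These are 1.03-fold and 1.23-fold of control.

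Irf2 was the lowest member at 24 h. Its spots read -2.43 and -2.44 with LPS in Cy5, and -0.38 and -0.41 with LPS in Cy3, giving a mean of -1.42 ± 1.44. Adjacent spots thus matched within 0.03 on each array while the arrays lay 2.04 apart. Both arrays were below 0 and only 0.817% of genes had a lower mean, but the second array was short of 1.5-fold, so the rule was not met. By the mean alone, or on the Cy5 array alone, Irf2 would have been called lower. The part of the ratio that followed the dye and not LPS was -1.02 for Irf2, and between -0.38 and 0.18 for the other members at 24 h. A dye effect equal on both arrays cancels in the mean, and with 1 array per orientation it cannot be told apart from another difference between the arrays. The 4 h arrays of Irf2 read -0.34 and 0.01, a mean of -0.16 ± 0.25.

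**Figure D2:**
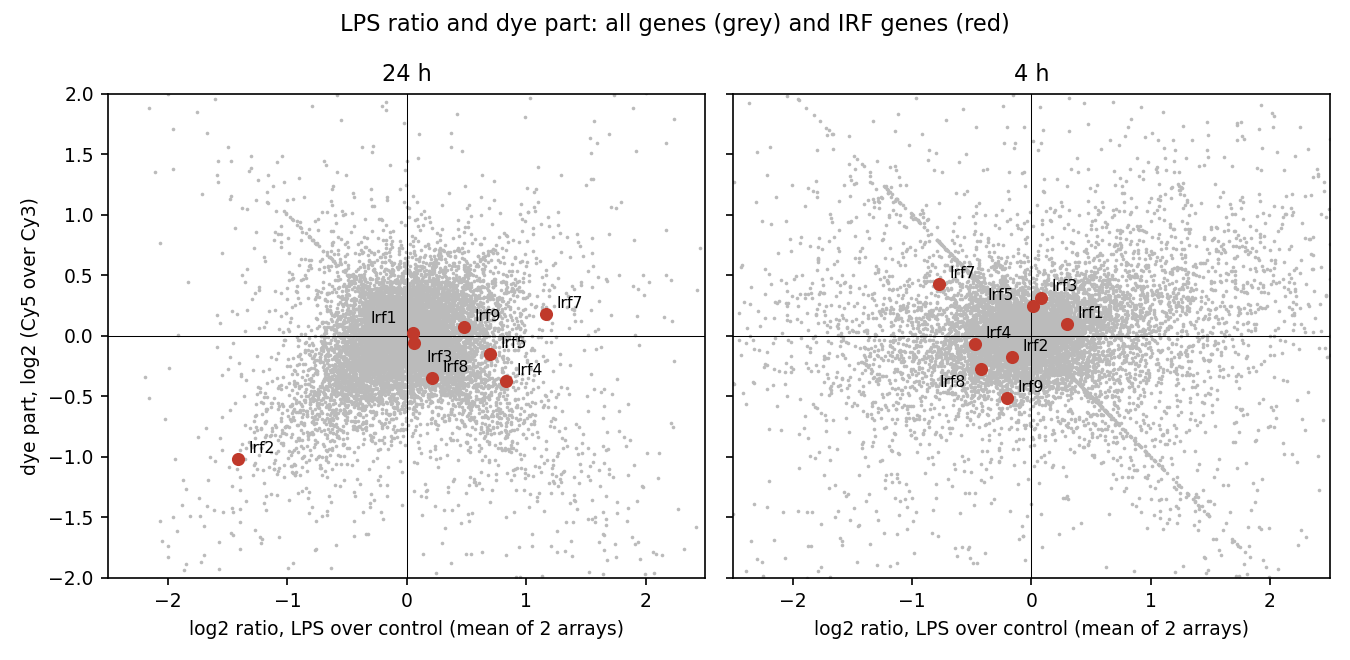
Log2 ratio of LPS over control (x axis, mean of 2 arrays) against the dye part (y axis, log2 Cy5 over Cy3) at 24 h (left) and 4 h (right) for all genes in grey and the IRF genes in red; 88 genes at 24 h and 435 at 4 h lie outside the axes. Irf7 at 24 h sits at 1.17 with a dye part of 0.18, and Irf2 at -1.42 with a dye part of -1.02.

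Upstream sequence is shown for the highest and lowest members at 24 h, Irf7 and Irf2, and for Irf1 and Irf8, which held matches to the sites searched. The sequences are RefSeq promoters of build GRCm38.p6, read 5′ to 3′ on the gene's strand and trimmed to the bases outside the annotated gene. Capitals mark matches to the ISRE core GAAANNGAAA, to the interferon gamma activated site (GAS) TTCNNNGAA, the site of STAT dimers, and to the NF-kB consensus, each searched on both strands. No match to a motif overlapped one to another motif. The windows lie at chr7:141266500-141266674 (minus strand), chr11:53769764-53770013 (plus), chr8:46739495-46739744 (plus) and chr8:120736108-120736357 (plus), and the annotation also places the transcript Gm16675 over part of the Irf2 window.
Irf7: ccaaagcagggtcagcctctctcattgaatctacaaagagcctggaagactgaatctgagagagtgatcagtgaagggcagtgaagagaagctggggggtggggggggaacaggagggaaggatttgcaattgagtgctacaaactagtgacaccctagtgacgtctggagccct
Irf1: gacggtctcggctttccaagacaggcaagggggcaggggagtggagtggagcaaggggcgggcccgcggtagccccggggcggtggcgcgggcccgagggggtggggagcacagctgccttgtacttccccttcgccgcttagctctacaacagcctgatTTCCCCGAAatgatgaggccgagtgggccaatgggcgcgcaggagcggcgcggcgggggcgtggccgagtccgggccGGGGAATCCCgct
Irf2: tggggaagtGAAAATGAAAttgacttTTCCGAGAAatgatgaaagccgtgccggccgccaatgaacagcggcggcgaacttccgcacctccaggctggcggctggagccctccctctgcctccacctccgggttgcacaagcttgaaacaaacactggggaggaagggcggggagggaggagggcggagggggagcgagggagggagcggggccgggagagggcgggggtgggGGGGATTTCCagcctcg
Irf8: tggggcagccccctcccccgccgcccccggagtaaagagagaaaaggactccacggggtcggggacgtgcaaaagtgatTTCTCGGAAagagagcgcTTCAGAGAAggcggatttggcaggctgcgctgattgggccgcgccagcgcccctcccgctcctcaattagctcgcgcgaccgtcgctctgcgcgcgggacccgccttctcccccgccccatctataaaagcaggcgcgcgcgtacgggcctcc

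Of the 11 windows of 250 bases before a start site that RefSeq gives for the 8 genes, 1 held the ISRE core, 3 a GAS and 2 an NF-kB match. Among all 32841 such windows, 2.98% held the ISRE core, 7.02% a GAS and 3.90% an NF-kB match. The search covered all 250 bases; 4 of the 11 windows, the Irf5 window among them, lie wholly inside the annotated gene. The Irf2 window held all 3 kinds, Irf1 a GAS and an NF-kB match, and Irf8 a pair of GAS matches; 0 matches fell in the Irf7 window, which says only that those letters are not there. Irf1 and Irf8, the other members with GAS matches, lay at 0.05 and 0.21 at 24 h and at 0.30 and -0.42 at 4 h. A link between matches and ratios was not tested. A match is a stretch of letters and not a site shown to be used in these cells.

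Irf4 and Irf8 are members best known from lymphocytes and myeloid cells. Irf4 had array values of 0.45 and 1.21 at 24 h, both above 0, with a mean of 0.83 ± 0.53 (1.78-fold); the mean and the array with LPS in Cy5 were both short of the rule. On the array with LPS in Cy3 alone, Irf4 and not Irf7 would have been called. Its 4 h arrays read -0.55 and -0.40, both below 0, a mean of -0.47 ± 0.10. Irf8 had -0.14 and 0.57 at 24 h, with a mean of 0.21 ± 0.50, and -0.69 and -0.15 at 4 h, with a mean of -0.42 ± 0.38. The adjacent Irf8 spots matched within 0.06 on both 24 h arrays, whose signs differed.

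Markers of the cells that use these members were set beside them, and their part in the values was not tested. Of 15 measured B and T lymphocyte markers, 5 were above 0 and 2 below 0 on both arrays at 24 h. Over all genes, 56.5% had the same sign, either way, on both. The marker median was 0.17, with a range from -0.57 to 1.01, and 0 were called, where 2.48% of all genes were. At 4 h, 13 markers were below 0 and 1 above 0 on both arrays, where 65.6% of all genes had the same sign, either way, on both. The markers ranged from -1.54 to 0.34 at 4 h, with a median of -0.53 that becomes -2.54 with the abundant centring. The 4 called lower there, where 5.77% of all genes were, were the B cell genes Blk (-1.54), Cd22 (-1.50) and Pax5 (-1.17 ± 0.24) and the T cell kinase gene Zap70 (-1.11 ± 0.08). The arrays of Blk read -0.60 and -2.48 and those of Cd22 -2.08 and -0.92, and the call of Blk was lost with arrays scaled to one spread. The 18 macrophage and dendritic cell markers centred near 0, with medians of 0.03 and -0.19 at 24 h and 4 h. They ranged from -1.34 to 1.29 and from -1.26 to 0.49. Only Coro1a (5.56%) was called at 24 h, at 1.05 ± 0.15, where 1.68% of all genes were called higher. With the abundant centring Coro1a was at 0.93 and not called. At 4 h 0 of these markers were called, where 14.5% of all genes were. Spi1, the myeloid factor that binds DNA with Irf4 and Irf8, lay at 0.07 ± 0.16 and -0.45 ± 0.08. Of 12 genes bound by Irf8 or Irf4 in leukocytes, 0 were called at 24 h, where 2.48% of all genes were. Prdm1 was called lower at 4 h (-1.08 ± 0.50), which is 8.33% of the list against 5.77% of all genes. That call was lost with arrays scaled to one spread and with quantile normalization. The list medians were 0.02 and -0.16. Epithelial markers had medians of 0.05 and -0.18 over 14 genes, with 0 called at 24 h and Cldn3 (7.14%) lower at 4 h (-1.66). The 14 endothelial markers had medians of -0.06 and -0.04, and their only call (7.14%) was Cdh5 at -3.47 at 4 h. The Cdh5 call rests on 1 of its 2 oligonucleotides (-7.21 and 0.27), with arrays at -4.97 and -1.98. Both shares lay near the 5.77% of all genes called lower at 4 h.

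Ranked by the 24 h mean, the members ran Irf7, Irf4, Irf5, Irf9, Irf8, Irf3, Irf1 and Irf2. Of the 7 pairs of neighbours in that order, 6 had overlapping array values, and only the gap between Irf1 and Irf2 was free of overlap. The 4 h order was Irf1, Irf3, Irf5, Irf2, Irf9, Irf8, Irf4 and Irf7, and all 7 pairs of neighbours overlapped. The arrays of a time had the same sign for 6 of 8 members at 24 h and for 4 of 8 at 4 h, against 56.5% and 65.6% of all genes.

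Between the times, Irf7 and Irf4 lay higher at 24 h than at 4 h, whereas Irf2 lay lower. A difference was called when the means were at least 1 apart and both arrays of a time lay beyond both of the other. Upward that took 2 of 8 members, against 8.23% of all genes, and downward 1 of 8, against 9.99%. The 24 h mean minus the 4 h mean was 1.94 for Irf7, 1.30 for Irf4 and -1.25 for Irf2. Irf9, Irf5 and Irf8 differed by 0.68, 0.68 and 0.63, Irf3 by -0.02 and Irf1 by -0.25. Both 24 h arrays lay above both 4 h arrays in 5 members (24.3% of all genes) and below them in 2, Irf1 and Irf2 (23.3%). For Irf8 the gap was narrow, between -0.14 at 24 h and -0.15 at 4 h. Irf7 and Irf4 were also above 0 on both 24 h arrays and below 0 on both 4 h arrays, as were 8.23% of all genes. With centring on the abundant transcripts, 7 members were called higher at 24 h than at 4 h and Irf2 was not called; the splits over all genes were then 8992 higher and 95 lower, against 917 and 1113. Without the 24 h array with LPS in Cy5, Irf2 was not called, and without the 24 h array with LPS in Cy3, Irf4 was not. The difference has no test, with 1 RNA pair a time, and it is not known whether control RNA was shared between the times.

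**Figure D3:**
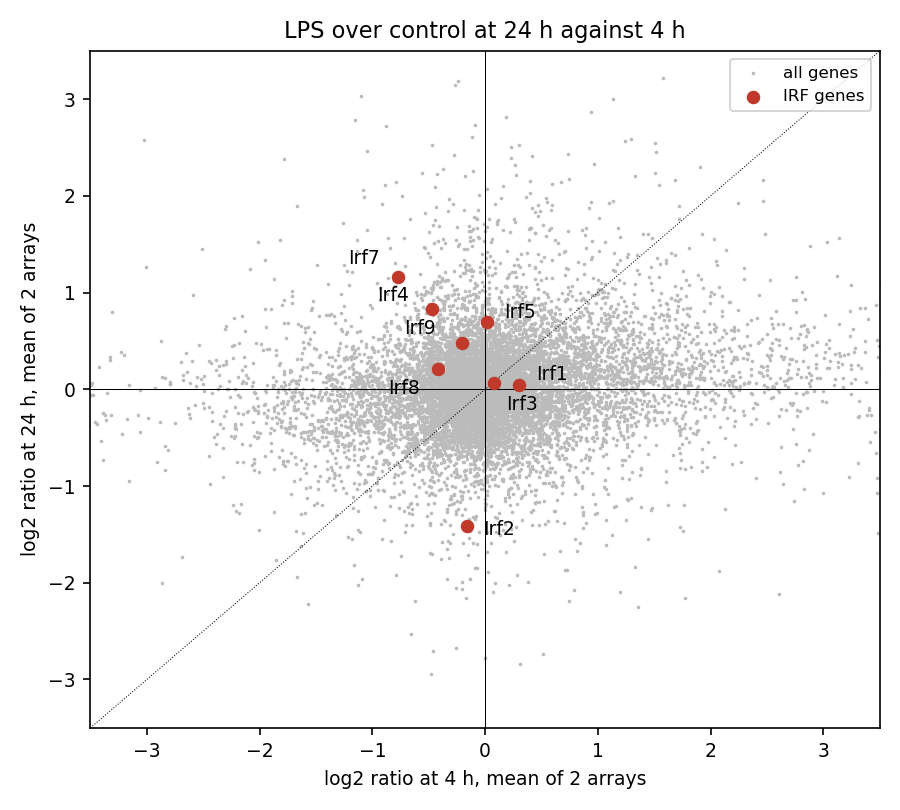
Log2 ratio of LPS over control at 24 h (y axis) against 4 h (x axis), each the mean of 2 arrays, for all genes in grey and the IRF genes in red; the dotted line marks equal values, and 106 genes lie outside the axes. Irf7 and Irf4 lie in the upper left, at 1.17 and 0.83 at 24 h and -0.77 and -0.47 at 4 h, and Irf2 lies lowest at -1.42 and -0.16.

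A response common to both times was asked for with limma, on the 2 pair means with 1 residual degree of freedom. It called 0 of 11138 genes (0%) at a Benjamini-Hochberg adjusted p under 0.05, and 513 had an unadjusted p under 0.05, 0 of them IRF genes. Of the members Irf2 had the lowest adjusted p, 0.761 in limma, with a fitted ratio of -0.79 ± 0.42 (SE). Irf7, with opposite signs at the times, had a fitted ratio of 0.20 ± 0.57 and an adjusted p of 0.958 in limma. Over the alternatives of this fit the lowest adjusted p of any member ranged from 0.488 to 0.933.

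The genes whose values over the 4 arrays lay nearest to those of Irf7 were Rabep2, Snf8 and Arel1, at Euclidean distances of 0.49, 0.56 and 0.60. Rabep2 read 1.16 and 1.05 at 24 h and 0.00 and -0.91 at 4 h. This is a likeness over 4 numbers among 11138 genes.

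Genes transcribed through ISGF3 were listed beside the family. Of the 20 measured, 10 were called higher and 0 lower at 24 h, where 1.68% of all genes were called higher, and the list median was 1.17. At 4 h, 9 were called higher and 0 lower, where 8.74% of all genes were called higher, and the list median was 0.81. With centring on the abundant transcripts 0 of the 9 calls at 4 h were kept and the median became -1.20, while 9 of the 10 calls at 24 h were kept. The list was drawn up with the high interferon genes of these arrays known, so its count is no independent evidence. The largest at 24 h were Rsad2, the antiviral enzyme viperin (2.21 ± 0.66), Usp18, which removes Isg15 from proteins (2.17, with arrays at 3.04 and 1.30), and the IFIT genes Ifit3 (2.15 ± 0.22) and Ifit2 (1.93 ± 0.55). At 4 h they were the RNA sensor gene Ifih1 (3.14, with arrays at 2.15 and 4.12), Cmpk2 (1.81 ± 0.27), Ifi35 (1.72, with arrays at 2.52 and 0.91) and Trim25 (1.70 ± 0.55). With the abundant centring Cmpk2, Ifi35 and Trim25 turn to between -0.20 and -0.30. Stat2, the partner of Irf9, read 1.53 and 1.29 at 24 h and 1.60 and 0.68 at 4 h, high on every array, with means of 1.41 ± 0.17 and 1.14 ± 0.66; its 4 h call was lost with arrays scaled to one spread and with quantile normalization, and the 4 h mean turns below 0 with the abundant centring.

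Of 23 genes listed as bound by Irf1, 4 were called higher at 24 h, against 1.68% of all genes, and 0 lower, for a median of 0.28: the guanylate-binding protein gene Gbp2 (2.43 ± 0.53), the GTPase gene Igtp (1.67 ± 0.66), the adhesion molecule gene Vcam1 (1.61 ± 0.40) and the inflammatory caspase gene Casp1 (1.21 ± 0.07). At 4 h, 2 (8.7%) were called higher, a share near the 8.74% of all genes, and 0 lower, for a median of 0.17 (-1.83 with the abundant centring): Lox, which crosslinks collagen (3.42 ± 0.14), and the GTPase gene Irgm1 (1.58 ± 0.64), whose value turns below 0 with the abundant centring. The remaining 17 were called at neither time. This list too was drawn up with earlier results of these data known, so its count is no independent evidence.

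The adaptors and kinases that activate IRF proteins gave 0 calls among 11 genes at 24 h, with a median of 0.09, where 2.48% of all genes were called in either direction. At 4 h, 2 of the 11 were called, near the 14.5% of all genes: the kinase gene Ikbkb was called higher (1.26 ± 0.05), which turns below 0 with the abundant centring, and Myd88, the adaptor of Irf5 and Irf7, was called lower (-1.05 ± 0.28). The call of Myd88 was lost with arrays scaled to one spread (-0.93) and with quantile normalization (-0.92), and the list median at 4 h was -0.22. Tbk1 lay at -0.03 ± 0.43 at 24 h and 0.57 ± 0.55 at 4 h, and Ikbke at 0.13 ± 0.27 and -0.38 ± 0.13. Of 7 LPS receptor genes 0 were called at either time, where 2.48% of all genes were at 24 h and 14.5% at 4 h. Tlr4 itself had arrays at 0.46 and 1.58 at 24 h and at 1.94 and -0.43 at 4 h, and its 2 oligonucleotides differed, at 0.23 and 1.81 at 24 h.

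Of 13 partners and regulators of IRF proteins, Stat2 was the only one called at 24 h (7.69%), with a list median of -0.12. Over all genes 2.48% were called at 24 h in either direction. At 4 h, Stat2 and Hmgb1, a chromatin protein (2.67 ± 0.79), were called higher (15.4%), with a list median of 0.01. Of all genes, 8.74% were called higher at 4 h and 14.5% in either direction. The 4 h calls of Hmgb1 and Ifna9 were lost with the abundant centring. Among 16 interferon ligands, receptors and receptor kinases, only Ifna9 was called at 24 h (6.25%), as lower (-2.11, with arrays at -0.76 and -3.47). At 4 h Ifna9 was called higher (2.61 ± 0.65) and Ifna4 (-2.23 ± 0.33) and Ifna1 (-1.33, with arrays at -1.91 and -0.75) lower. These 3 calls were 18.8% of the list, near the 14.5% of all genes called in either direction. The list medians were 0.09 and -0.32. Interferon alpha genes are near-identical, and an oligonucleotide may not separate them. Ifnb1, the target of Irf3, lay at 0.55 ± 1.06 at 24 h and -0.37 ± 0.52 at 4 h, and the receptor gene Ifnar1 at 0.95 ± 0.91 and 0.00 ± 0.65, none of them past the rule.

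**Figure D4:**
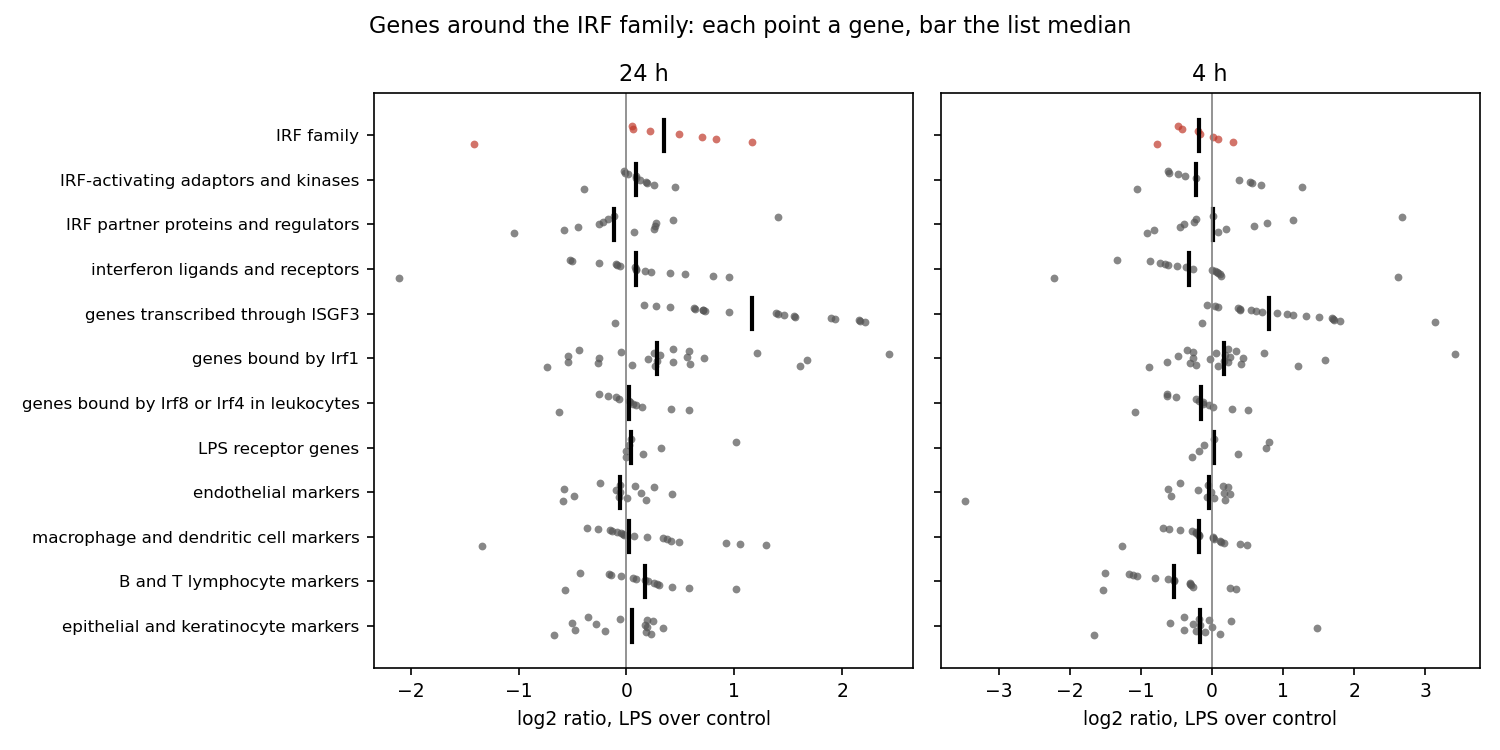
Log2 ratio of LPS over control (x axis, mean of 2 arrays) at 24 h (left) and 4 h (right) for the measured genes of the IRF family (red) and of each list around it (grey); black bars are list medians. The abundant transcripts, with a 4 h median of 1.99, are not drawn; of the lists drawn, ISGF3 has the medians farthest to the right, 1.17 at 24 h and 0.81 at 4 h, against 0.35 and -0.18 for the IRF family.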

How the data were processed

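The authors deposited a table of log2 ratios of the 2 dyes for 32448 spots on 4 arrays. The log2 scale was read from the values, and the largest size of a column median was 3e-07. Scanner, background correction, normalization and ratio direction were not given in the sources used here; intensities were not used. Per the labels, LPS was in Cy5 on the first array of a time and in Cy3 on the second. The number of arrays limits the precision.

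Spots with a single symbol in the platform annotation (24344 spots, 11138 genes) were used; all 8 IRF genes matched RefSeq (GRCm38.p6) by Entrez identifier. Arrays were centred on their own medians and the reversed ones turned in sign; spots were averaged per gene, then the 2 arrays per time, which cancels a dye effect. Calls followed the 2-fold rule, and the shared response was fitted with limma 3.58.1 (lmFit, eBayes) in R 4.3.3. Figures and tables were made with Python 3.11.15. The steps were tested on simulated data.

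The members, the gene lists and the tests were chosen with earlier results of these data known. The text names all IRF members, up to 4 called members of each list a time, and otherwise the 1 member with the largest value, a few signalling genes, and the 3 genes nearest to each called member. Alternatives were other scalings and centrings, exact zeros as not measured, other folds, the spots of a gene by their median, leaving out each array, and other fits. The demand on every spot by itself was added after seeing the data.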

Additional observations from a re-analysis of the deposited data

Results flagged for a closer look

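Irf7 and Irf4 stood on opposite sides of 0 at the times on every array, above 0 at 24 h and below 0 at 4 h, with differences of 1.94 and 1.30 (log2, 24 h minus 4 h). The difference was not tested, since each time is 1 RNA pair, and 8.23% of all genes show the same pattern of signs. The named genes Cd22 (1.92), Arel1 (1.58), Rabep2 (1.56), Snf8 (1.45), Zap70 (1.28) and Myd88 (1.24) moved the same way, also untested. Rabep2 read -3e-07, in effect 0, on the 4 h array with LPS in Cy5, so its sign there carries no weight. Arel1, Rabep2 and Snf8 were picked for their likeness to Irf7. Ifna9 moved the opposite way on every array, by -4.72, untested, and its oligonucleotide may read related interferon alpha genes.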

How the results depend on the processing

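The call of Irf7 at 24 h held under every scaling and centring tried, with zeros as not measured, at a 1.5-fold mean and on every spot by itself; it was lost at a 3-fold mean (0 members called) and without the array with LPS in Cy5, where Irf4 was called instead. By the mean alone 2 members were called at 24 h, Irf7 and Irf2. Leaving out each array in turn gave 1 to 2 called members at 24 h and 0 to 1 at 4 h (Irf7, lower). For the difference between the times it gave 2 to 4, against 3 with all arrays, and a difference of at least 1.5 left 1, Irf7. Centring on the abundant transcripts gave 8 called members at 4 h and 7 for the difference. With that centring the 4 h values of Cmpk2 (-0.20), Ifi35 (-0.29), Trim25 (-0.30), Usp18 (-0.32), Irgm1 (-0.42), Rsad2 (-0.68), Ikbkb (-0.75) and Stat2 (-0.87) turned in sign, which its construction, 1 constant per array, shows. The fit shared over the times called 0 members under every alternative run.

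Over all genes the 24 h split of 187 higher and 89 lower was 411 and 149 with quantile normalization, 346 and 183 at a 1.5-fold mean, 73 and 15 at 3-fold, 388 and 280 by the mean alone, 62 and 18 on every spot by itself, 771 and 310 without the array with LPS in Cy5, and 502 and 818 without the other. At 4 h the split of 973 and 643 was 569 and 306 at 3-fold, 608 and 436 on every spot, 1376 and 1007 without the Cy5 array and 1476 and 996 without the other. The split of the time difference, 917 and 1113, was 431 and 641 at a difference of 1.5, 451 and 626 on every spot and 1576 and 1405 without the 24 h Cy5 array. Each ratio already pairs LPS with control RNA on the same array, but with 1 RNA pair a time no test within a time was possible. Faint spots could not be told from bright ones.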
